A study of Mus musculus with 6 samples.

Results

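The 6 genes Kcnma1, Kcna10, Kcna1, Kcna2, Kcnc1 and Kcnq3, which encode the pore-forming subunits of outward K+ channels, were examined. They were taken by gene symbol, as channels of hair cells and spiral ganglion neurons around the onset of hearing, and are 6 of the 24411 symbols measured. All 6 were among the 15303 genes with enough counts to be tested. Kir2.1, an inward rectifier, was overexpressed in the inner hair cells (IHCs) of mice to silence their spontaneous firing before hearing begins, and poly(A) RNA of the cochlea was sequenced at P9. The Kir2.1-OE animals were compound heterozygotes for Otof-rtTA and for a tetO-Kir2.1-IRES-tau-lacZ transgene. The controls were littermates heterozygous for Otof-rtTA alone, named WT in the sample labels. Both groups were C57BL/6N and drank water with the same dose of doxycycline (DOX, 0.5 mg/ml), so the rtTA allele and the drug are shared. The Otof promoter drives rtTA mainly in IHCs, whereas each library held RNA of all cells of the tissue, which the labels name cochlea and the study describes as microdissected sensory epithelium. Each group had 3 libraries, and each library was made from 1 pool of 8 cochleae from 4 mice. The labels do not say whether the pools came from separate litters, so p-values measure the spread between these pools. In such tissue RNA, fewer cells of a type and less RNA per cell cannot be told apart.

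Voltage-gated K+ channels open when the membrane depolarizes and let K+ leave the cell, which shortens action potentials and sets how often a neuron can fire. Several pore-forming subunits assemble into a channel of the Kv1, Kv3 and Kv7 families, and subunits of the same family can mix. The large-conductance BK channel, encoded by Kcnma1, also needs intracellular Ca2+ and carries the fast outward current that mature IHCs gain around hearing onset. In the auditory nerve, the Kv1 subunits Kcna1 and Kcna2 carry the low-threshold current that limits neurons to precisely timed spikes, while Kcnc1 carries a fast high-threshold current and Kcnq3 contributes to the slow M current.

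These genes share the K+ selectivity filter, the short stretch of the pore loop that lets K+ but not Na+ pass. To show what the rule for choosing them did not use, 45 coding bases around the filter are printed for 5 of them from the GENCODE vM21 transcripts, 5′ to 3′ on the coding strand, with the 15 bases of the 5 filter codons in capitals.
Kcnma1: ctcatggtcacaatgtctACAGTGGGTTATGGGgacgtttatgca
Kcna10: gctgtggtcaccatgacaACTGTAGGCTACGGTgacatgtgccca
Kcna1: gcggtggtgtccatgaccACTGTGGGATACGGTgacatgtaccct
Kcna2: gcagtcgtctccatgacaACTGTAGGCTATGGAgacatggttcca
Kcnc1: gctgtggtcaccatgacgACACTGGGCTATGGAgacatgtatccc
Relative to Kcna1, 8 of the 45 bases differed in Kcna10, 12 in Kcna2, 11 in Kcnc1 and 18 in Kcnma1. Over the whole coding sequence, Kcna1 and Kcna2 were the closest pair, with 72.4% identical bases. Their longest identical run was 20 bases, and the longest of any pair was 29 bases, between Kcna10 and Kcnc1.

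In the mm10 genome with GENCODE vM21 annotation, Kcna2 (ENSMUSG00000040724.5) and Kcna10 (ENSMUSG00000042861.7) are neighbours on the plus strand of chromosome 3. Kcna2 lies at chr3:107101146-107115005 and Kcna10 at chr3:107183056-107195721, with 68050 bases and 0 annotated genes between them. Their promoters, taken as 300 bases that span the start of the RefSeq transcript (GRCm38.p6, plus strand), are printed because these neighbours were called in opposite directions, and capitals mark each CG dinucleotide.
Kcna2, chr3:107101317-107101616: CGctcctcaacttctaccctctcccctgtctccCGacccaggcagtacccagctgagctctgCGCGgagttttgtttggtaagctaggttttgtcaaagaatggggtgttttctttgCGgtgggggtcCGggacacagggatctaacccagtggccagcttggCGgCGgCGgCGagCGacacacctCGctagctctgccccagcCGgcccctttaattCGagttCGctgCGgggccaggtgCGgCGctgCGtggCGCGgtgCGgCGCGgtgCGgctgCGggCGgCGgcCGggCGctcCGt
Kcna10, chr3:107182893-107183192: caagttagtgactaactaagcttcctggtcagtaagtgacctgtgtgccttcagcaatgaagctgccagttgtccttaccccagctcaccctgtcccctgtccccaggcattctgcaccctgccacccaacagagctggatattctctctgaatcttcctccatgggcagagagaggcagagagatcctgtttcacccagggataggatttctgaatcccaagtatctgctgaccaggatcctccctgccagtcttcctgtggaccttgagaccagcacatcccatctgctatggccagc
The Kcna2 window held 31 CG dinucleotides and the Kcna10 window 0, against a median of 7 over 32851 promoters of the same length. A window without any CG was found for 5.4% of these promoters, and 89.4% of them held fewer than that of Kcna2. The windows of Kcnma1 (chr14:24004156-24004455, minus strand) and Kcnc1 (chr7:46396218-46396517, plus strand) held 36 and 41. The motif GGGCGG, searched on both strands, occurred 3 times in each of the windows of Kcnma1 and Kcnc1, 1 time in that of Kcna2 and 0 times in that of Kcna10, and 35.7% of all promoters contained it. The motif TGACG occurred only in the window of Kcnc1 (20.8% of all promoters), and TATAAA in none of the 4 (13.6% of all promoters). These matches describe the letters of the windows and are not binding sites.

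Between 35430940 and 41205047 reads were assigned to genes in a library. Kcnj2, which encodes Kir2.1, had between 2213 and 3813 normalized counts in the Kir2.1-OE libraries and between 226.0 and 235.8 in the controls, so each library followed its label. Here a normalized count is a count scaled to the effective library size, and a gene was called when it changed more than 1.5-fold with an adjusted p-value under 0.05. Over all genes the log2 fold change depended on transcript length, with a median of -0.50 for 654 genes under 1000 nt and of 0.81 for 886 genes over 8000 nt. The fit was therefore repeated with offsets fitted to the trend with length and GC content in each library, after which these medians were -0.09 and 0.20, so a part of the trend remained among the longest genes. The defining markers of IHCs (Slc17a8 and Otof), outer hair cells (OHCs; Slc26a5 and Ocm) and neurons (Tubb3 and Nefl) were all detected, and no gene of the 12 cell type lists was at 0 in every library.

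In Kir2.1-OE cochleae, 5 of the 6 channel genes were called higher (Kcnma1, Kcna1, Kcna2, Kcnc1 and Kcnq3) and 1, Kcna10, was called lower. Of all genes tested, 15.5% were called higher and 5.08% lower, 20.5% together. The share called higher grew with transcript length. Of 886 genes over 8000 nt, where Kcnma1, Kcna2 and Kcnq3 lie, 567 were called higher. Of 4901 genes from 4000 to 8000 nt, where Kcna1 and Kcnc1 lie, 1290 were called higher. Of 2502 genes from 1000 to 2000 nt, where Kcna10 lies, 277 were called lower. The Kir2.1-OE and control libraries did not overlap for any of the 6 genes, a separation shared by 61.6% of all genes. The median log2 fold change of the 6 was 1.24, against 0.01 for all genes. The 6 genes and the lists below were chosen with earlier results of these data known. Their contrast with all genes is therefore a description and not a test. With the length and GC offsets, 3 were called higher (Kcna1, Kcna2 and Kcnc1) and 0 lower, where 6.44% and 3.43% of all genes were called, and their median was 0.84. The same 3 genes passed a test against a log2 fold change of 0.6, which 5.44% of all genes passed upward and 0.372% downward. At an adjusted p-value under 0.05 alone, which called 27.3% of all genes higher and 23.5% lower, the 6 calls were the same. For each of the 6, the exact two-sided permutation test gave p = 0.10, the smallest that 3 pools against 3 allow. Leaving out any 1 library kept 5 genes called higher, and Kcna10 lost its call without Kir2.1-OE replicate 1.

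**Figure D1:**
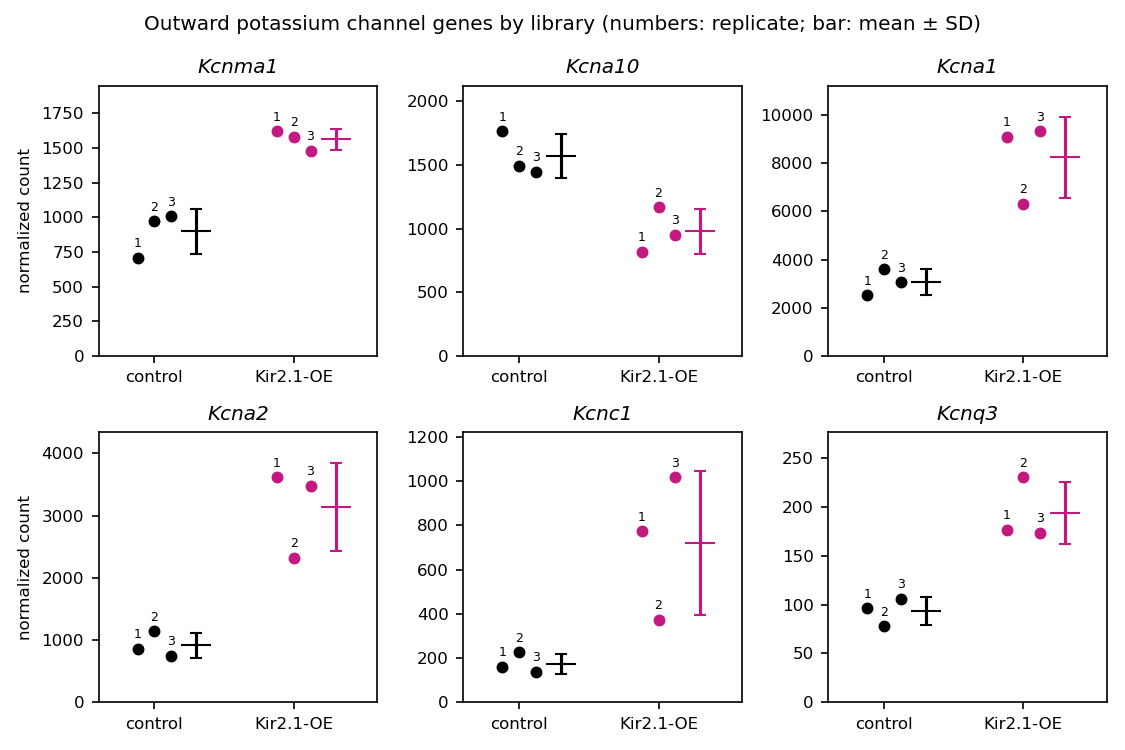
Normalized counts (vertical axes, starting at 0) of the 6 channel genes in the control and Kir2.1-OE libraries. Each point is 1 pool of 8 cochleae and the lines give the mean ± SD of 3 pools; the Kir2.1-OE points lie above all control points in 5 panels and below them for Kcna10.

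Kcnma1 (ENSMUSG00000063142.15; chr14:23289431-24014491, minus strand) encodes the pore of the BK channel. In the order of replicate number, which is used throughout, its normalized counts were 1622, 1582 and 1479 in the Kir2.1-OE pools, compared with 709, 973 and 1009 in the control pools. All Kir2.1-OE libraries were higher than all controls, and control replicate 1 was the lowest. The mean was 1561 ± 73.7 (SD, n = 3 pools) against 897 ± 164, a log2 fold change of 0.80 (SE 0.125; edgeR quasi-likelihood test, Benjamini-Hochberg adjusted p = 8.56e-04). Kcnma1 was the steadiest of the 6 within the Kir2.1-OE group, with a coefficient of variation of 4.72%, against 18.2% in controls. With the offsets its log2 fold change was 0.23 (adjusted p = 0.181, same test) and it was no longer called. The gene has 38 annotated transcripts, the longest of 12094 nt, and with offsets taken from the median coding transcript of 3498 nt the value was 0.57 (adjusted p = 0.00523, same test), just under the fold threshold. Its exons share 1016 bases with the antisense long noncoding RNA 4930519K11Rik, and reads from these bases cannot be told apart if the counting ignored strand; that RNA was listed at 0 in all 6 libraries.

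None of the 7 auxiliary subunits of BK that were tested was called higher, beside 15.5% of all genes. At that share, so few genes do not set the BK subunits apart. Kcnmb2, an auxiliary subunit that inactivates the channel, fell by 0.71 on the log2 scale (adjusted p = 0.0141, same test), from 314 ± 59.8 to 191 ± 43.0. Single libraries ranged over 147, 194 and 233 in Kir2.1-OE and over 382, 273 and 286 in controls, without overlap. With the offsets the value was -0.51 and Kcnmb2 was not called. Kcnmb4, another beta subunit, had 311 ± 35.6 against 331 ± 19.3 (log2 fold change -0.09, adjusted p = 0.571), and the groups overlapped. Lrrc52, a gamma subunit that helps BK open at negative voltages, had few counts, with 15.7 ± 3.94 against 23.2 ± 12.5 (log2 fold change -0.55, adjusted p = 0.329). Lrrc55, a related gamma subunit, had 1576 ± 94.7 against 1224 ± 134. Its difference of 0.36 on the log2 scale (adjusted p = 0.0102) lay under the fold threshold. Of 7 other Ca2+- or Na+-activated pore subunits tested, only Kcnt1 was called (14.3%, near the 15.5% of all genes called higher). Kcnt1 was higher by 1.24 on the log2 scale (adjusted p = 0.00832, edgeR quasi-likelihood test), at 62.9 ± 17.7 against 26.4 ± 5.78. With the offsets it was not called (0.51). Kcnn2, the small-conductance channel coupled to the efferent receptor of hair cells, had 410 ± 62.5 against 316 ± 29.9 (log2 fold change 0.38) and was not called.

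Kcna10 encodes a Kv1 family subunit that is known from inner ear hair cells. Its normalized counts were 820, 1170 and 951 in the Kir2.1-OE libraries and 1767, 1495 and 1446 in the controls. It was the only gene of the 6 with every Kir2.1-OE library under every control, and replicate 2 was the highest of the Kir2.1-OE pools. The mean fell from 1569 ± 173 to 980 ± 177 (SD, n = 3 pools), which is 37.5% lower, with a log2 fold change of -0.68 (SE 0.132, adjusted p = 0.00244, edgeR quasi-likelihood test). Without Kir2.1-OE replicate 1 the value was -0.58 (adjusted p = 0.0108) and with the offsets -0.49 (adjusted p = 0.0150), in the same test, both under a 1.5-fold change. With offsets from the median coding transcript it remained called (-0.70, adjusted p = 0.00273, same test). Hair cell markers are given beside this gene. The summed IHC markers were higher in every Kir2.1-OE library (9484 to 11112 normalized counts) than in any control (6988 to 7807), and so were the 11 markers shared by hair cells (46774 to 56315 against 39882 to 42779). The OHC markers overlapped (38890 to 46294 against 43340 to 51666). The log2 ratio of Kcna10 to these sums differed by -1.17 for IHC, -0.97 for shared and -0.54 for OHC markers, so Kcna10 was lower relative to each of the 3 sums. These sums are carried by a few abundant genes, and 2 of 5 IHC, 2 of 11 shared and 2 of 7 OHC markers were called higher and 0 lower, beside 15.5% and 5.08% of all genes. With the offsets 1 IHC, 1 shared and 1 OHC marker were called higher and 1 OHC marker lower, beside 6.44% and 3.43% of all genes. The marker sums and the ratios to them were not corrected for length. Without the offsets the median log2 fold change was 0.32 for the IHC, -0.02 for the shared and -0.11 for the OHC markers. Single shared markers moved both ways, such as Myo7a (1.17) and Lhfpl5 (-0.56, under the fold threshold).

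Kcna1 (ENSMUSG00000047976.4; chr6:126640397-126646384, minus strand), the low-threshold Kv1 subunit of axons and auditory neurons, had by far the most reads of the 6. It held 9100, 6317 and 9334 normalized counts in Kir2.1-OE pools and 2510, 3607 and 3063 in control pools. The groups were well apart, and even the lowest Kir2.1-OE library, replicate 2, was 1.75 times the highest control. The mean was 8250 ± 1679 (SD, n = 3 pools) against 3060 ± 549, 2.70-fold higher, with a log2 fold change of 1.43 (SE 0.167, adjusted p = 2.35e-04, edgeR quasi-likelihood test). With the offsets the log2 fold change was 1.26 (adjusted p = 9.44e-04, same test).

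Kcna2, which encodes the usual partner of Kcna1 in mixed channels, had normalized counts of 3614, 2327 and 3482 in the Kir2.1-OE libraries and 861, 1146 and 749 in the controls. Replicate 2 was again the lowest of the Kir2.1-OE pools and replicate 2 the highest control. The mean was 3141 ± 708 (SD, n = 3 pools) against 919 ± 205, 3.42-fold higher, with a log2 fold change of 1.77 (SE 0.191, adjusted p = 1.86e-04, edgeR quasi-likelihood test). The offsets took more from this long transcript of 11582 nt and left a log2 fold change of 1.19 (adjusted p = 0.00179, same test). Kcna1 and Kcna2 were called in all 21 alternative fits, with log2 fold changes between 1.10 and 1.57 for Kcna1 and between 1.03 and 1.96 for Kcna2.

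The balance of Kcna1 and Kcna2 within a library was compared because their products share channels. The log2 ratio of Kcna1 to Kcna2 was 1.33, 1.44 and 1.42 in the Kir2.1-OE libraries and 1.54, 1.65 and 2.03 in the controls. Every Kir2.1-OE value lay under every control value, with means of 1.40 ± 0.058 and 1.74 ± 0.255 (SD, n = 3 pools) and a difference of -0.34 (p = 0.10 by an exact two-sided permutation test, its lowest possible value). Without control replicate 3 it was -0.20. With the offsets the difference was 0.07, so the direction of this balance depends on the correction for length.

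The Kv1 genes lie in clusters, and neighbours were not all called in one direction. On chromosome 3, Kcna3 lies 63075 bases before Kcna2. It had only 22.8 normalized counts on average against 13.2 (log2 fold change 0.78, adjusted p = 0.105, edgeR quasi-likelihood test), while Kcna2 was called higher and Kcna10 lower. On chromosome 6, Kcna1 is flanked by Kcna5, another Kv1 subunit, at 234 normalized counts against 297 (log2 fold change -0.35, not called). On its other side lies Kcna6, at 854 ± 166 against 470 ± 105, called higher with a log2 fold change of 0.86 (adjusted p = 0.00371, same test). Kcna6 was not called with the offsets (0.29).

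Kcnc1 (ENSMUSG00000058975.7; chr7:46396497-46438704, plus strand) encodes the Kv3 subunit of fast-firing neurons. It had normalized counts of 772, 373 and 1016 in the Kir2.1-OE libraries and 161, 226 and 139 in the controls. The Kir2.1-OE pools were far from alike, with a coefficient of variation of 45.1%, and replicate 2 was again the lowest. The mean was 720 ± 325 (SD, n = 3 pools) against 175 ± 45.3, 4.09-fold higher by the fit, with a log2 fold change of 2.03 (SE 0.331, adjusted p = 0.00105, edgeR quasi-likelihood test). This was the largest change of the 6 and the least precise. The value was 1.68 without Kir2.1-OE replicate 3 and 2.32 without replicate 2, and 1.16 with the offsets (adjusted p = 0.0221, same test).

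Kcnq3 (ENSMUSG00000056258.9; chr15:65986387-66286642, minus strand), a Kv7 subunit of the M current, was the least abundant. Its normalized counts were 177, 230 and 173 in the Kir2.1-OE libraries and 96.3, 78.1 and 106 in the controls. Like Kcna10, and unlike Kcna1, Kcna2 and Kcnc1, it was highest in Kir2.1-OE replicate 2. The mean was 193 ± 31.7 (SD, n = 3 pools) against 93.4 ± 14.1, with a log2 fold change of 1.05 (SE 0.192, adjusted p = 0.00183, edgeR quasi-likelihood test). With the offsets it was 0.53 (adjusted p = 0.0606, same test) and not called.

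**Figure D2:**
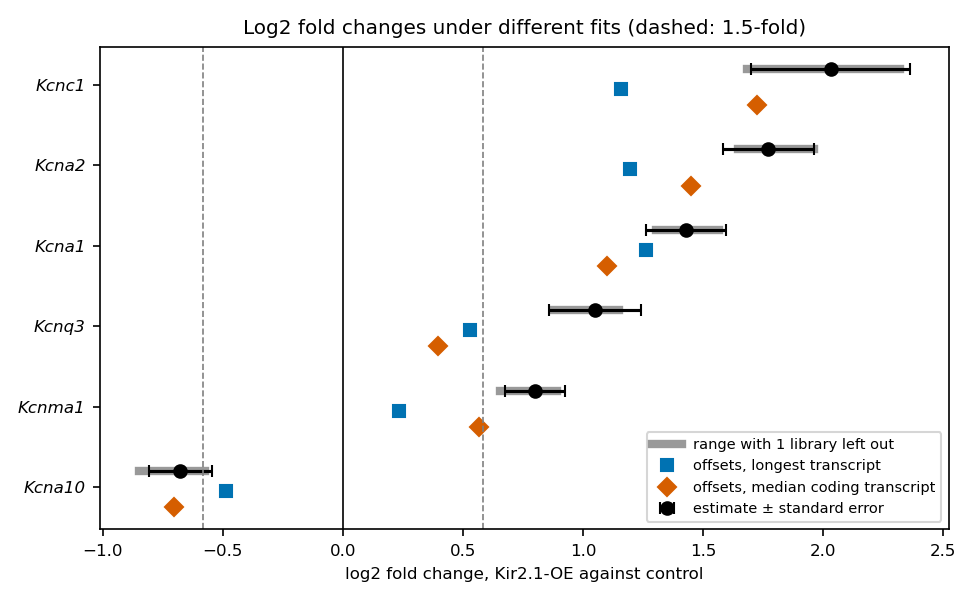
Log2 fold change (horizontal axis, Kir2.1-OE against control) of the 6 channel genes under different fits. Black points with bars are the estimate ± standard error, grey bars the range with 1 library left out, squares and diamonds the offsets from the longest and the median coding transcript, and dashed lines a 1.5-fold change; the longest-transcript offsets moved Kcnma1 from 0.80 to 0.23 and Kcnc1 from 2.03 to 1.16, and Kcna1 only from 1.43 to 1.26.

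**Figure D3:**
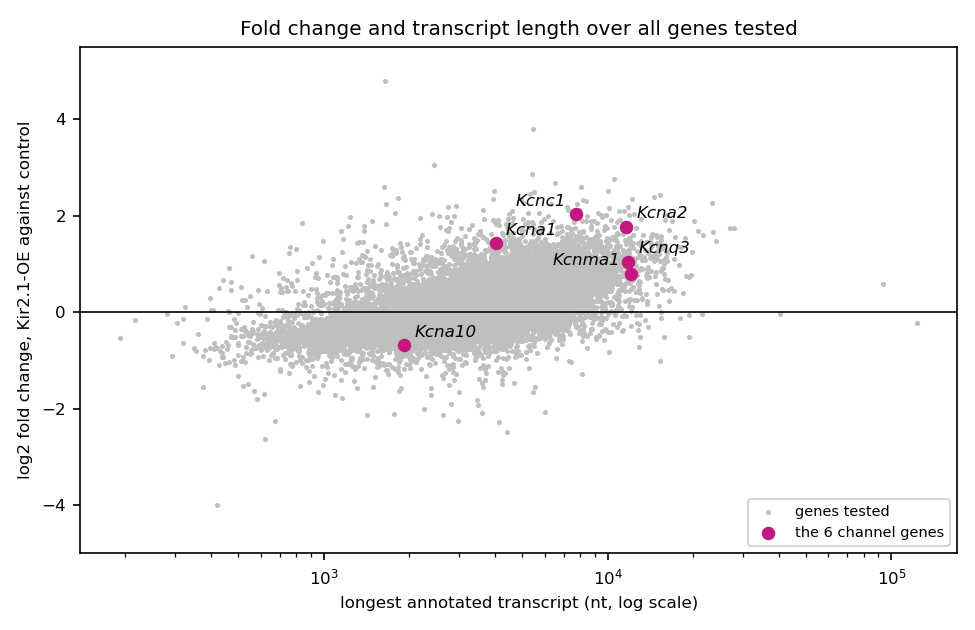
Log2 fold change (vertical axis) against the length of the longest annotated transcript in nt (horizontal axis, log scale), for genes tested with a known length. Grey points are these genes, 1 of which lies outside the vertical range, and coloured points are the 6 channel genes. The grey cloud climbs with length, Kcna10 is short (1913 nt) and lower, and Kcna2, Kcnq3 and Kcnma1 are the longest of the 6.

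Levels of different genes were compared as RPKM, computed here from the normalized counts and the length of the longest transcript. In controls the order was Kcna10 (21.9 ± 2.41), Kcna1 (20.2 ± 3.63), Kcna2 (2.11 ± 0.470), Kcnma1 (1.98 ± 0.360), Kcnc1 (0.602 ± 0.155) and Kcnq3 (0.211 ± 0.0317). Neighbours in this order overlapped for Kcna10 and Kcna1 and for Kcna2 and Kcnma1. In Kir2.1-OE libraries Kcna1 led on this scale with 54.5 ± 11.1, ahead of Kcna10 at 13.7 ± 2.46, and their libraries did not overlap. Kcna2 followed at 7.23 ± 1.63, Kcnma1 at 3.44 ± 0.162 and Kcnc1 at 2.47 ± 1.11, the latter pair overlapping, and Kcnq3 was last at 0.436 ± 0.0714. The order depends on the transcript chosen, since per kilobase of the median coding transcript the control level was 25.9 for Kcna1, 21.9 for Kcna10, 6.83 for Kcnma1 and 5.60 for Kcna2.

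The channel genes were set beside cell type markers measured in the same libraries. The 15 spiral ganglion neuron markers summed to 47124, 34178 and 71670 normalized counts in Kir2.1-OE and to 37263, 35929 and 26993 in the controls, so the groups overlapped. Of these, 9 were called higher and 1, Uchl1, was called lower, beside 15.5% and 5.08% of all genes. The rest were not called, namely Stmn2 (0.68), Tubb3 (0.38), Prph (0.14), Gap43 (-0.12) and Isl1 (-0.34 on the log2 scale). With the offsets 8 of the 15 were called higher and 0 lower, where 6.44% and 3.43% of all genes were called. The lower call of Uchl1 was thus lost with the offsets. The sums and ratios given here were not corrected for length. Uchl1 made up 46.6% of the sum in controls. Without Uchl1, a choice made after seeing the data, the sums were 39359, 25313 and 61542 against 18668, 21123 and 13700, with no overlap and a difference of 1.17 on the log2 scale. Kir2.1-OE replicate 2 was the lowest of its group in either sum, as it was for Kcna1, Kcna2 and Kcnc1. As a description with no test, the log2 ratio to the neuron sum was higher in Kir2.1-OE by 0.87 for Kcna1, 1.21 for Kcna2 and 1.39 for Kcnc1, and by 0.26, 0.60 and 0.78 once Uchl1 was left out. For Kcnma1 and Kcnq3 the differences were 0.26 and 0.49 with Uchl1 and -0.35 and -0.12 without it, so the direction depended on that 1 marker. Nefh, the heavy neurofilament chain, rose by 2.52 on the log2 scale (adjusted p = 6.04e-04, edgeR quasi-likelihood test), more than any of the 6 channel genes. Schwann and satellite glia markers also summed higher in every Kir2.1-OE library (399136 to 524927 against 281240 to 357515). Of these 10 markers, 5 were called higher and 0 lower, beside the same shares of all genes. Melanocyte and erythrocyte markers summed lower, at 0.455 and 0.470 times the control mean. The erythrocyte ratio leaned on control replicate 1, with sums of 44665, 17951 and 17918 in the controls against 10855 to 13789 in Kir2.1-OE. The part of tissue content in the channel results was not tested.

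**Figure D4:**
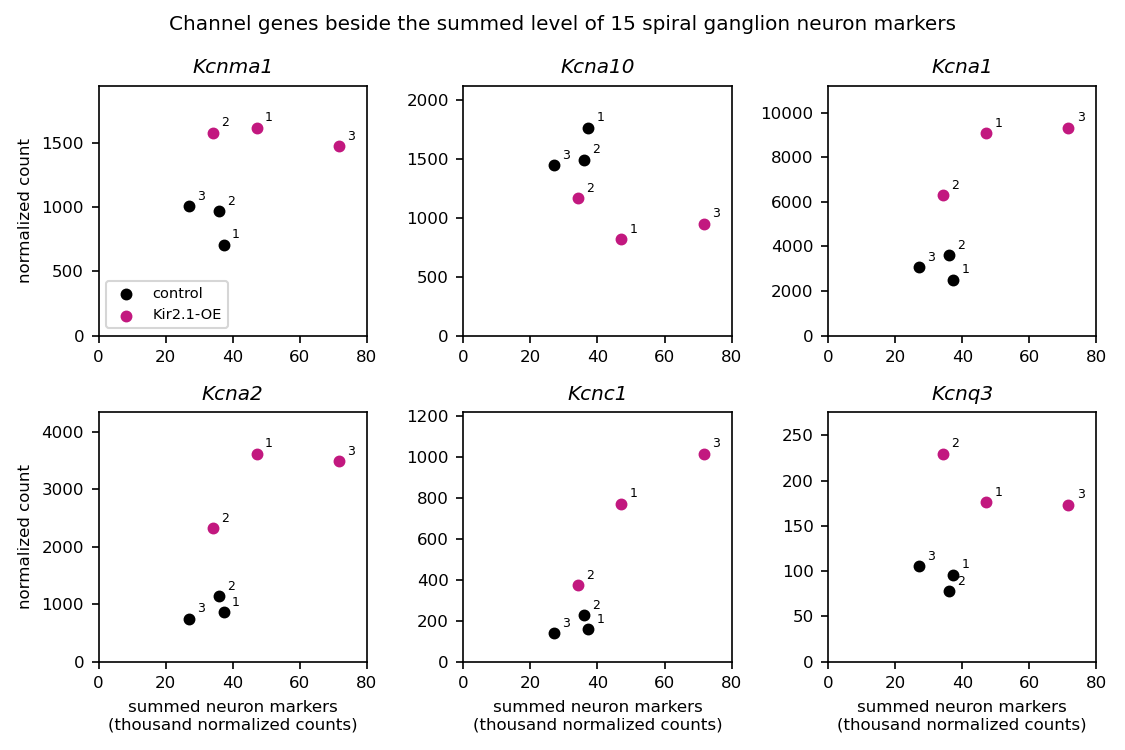
Normalized counts of channel genes (vertical axes) against the summed normalized counts of the 15 spiral ganglion neuron markers in the same library (horizontal axes). Each point is 1 library; the sum of Kir2.1-OE replicate 2 (34178) lies within the control range through Uchl1, which carries 46.6% of the control sum, and lies above every control without it (25313 against at most 21123).

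The other channel genes were described from 3 lists, namely 29 voltage-gated pore subunits, 7 Ca2+- or Na+-activated pore subunits and 21 auxiliary subunits that passed the count filter. Together 17 of 57 (29.8%) were called higher and 4 (7.02%) lower, beside the 15.5% and 5.08% of all genes, with a median log2 fold change of 0.27 against 0.01. With the offsets 8 were called higher and 5 lower, where 6.44% and 3.43% of all genes were called. Among voltage-gated pore subunits 10 of 29 were called higher and 0 lower, and with the offsets 3 higher and 1 lower. Besides Kcna6, those called higher without the offsets included Kcnh1 (1.38), Kcng1 (1.32), the delayed rectifier Kcnb2 (0.84), Kcnh5 (1.01), Kcnh2 (0.79) and Kcnq5 (0.73), all as log2 fold changes. Kcnh2, at 2043 ± 342 against 1177 ± 78.7, fell under the fold threshold with the offsets (0.26). Kcnb2 and Kcng1 kept their call with the offsets. Kcnh1 (27.3 ± 6.30 normalized counts against 10.4 ± 6.66), Kcnh5 (60.9 ± 14.6 against 30.1 ± 14.5) and Kcnq5 (47.0 ± 7.83 against 28.2 ± 3.84) had few counts. These were not called with the offsets.

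The auxiliary subunits moved in both directions, with 6 of 21 called higher and 4 lower, beside 15.5% and 5.08% of all genes, and a median log2 fold change of 0.04. The 3 beta subunits of Kv1 channels were all called higher, Kcnab2 by 1.43 (2205 ± 980 against 816 ± 135 normalized counts), Kcnab3 by 1.08 and Kcnab1 by 0.66 on the log2 scale, also with the offsets. Kcnab2 held 2039, 1318 and 3257 normalized counts in the Kir2.1-OE libraries and 833, 941 and 674 in the controls, again lowest in replicate 2 of the Kir2.1-OE pools. The Kv4 partners split. Dpp6 (1.32), Kcnip1 (1.26) and Kcnip3 (0.59) were called higher, the last of them not with the offsets (0.56), whereas Dpp10 was called lower (-1.01, adjusted p = 0.00393, edgeR quasi-likelihood test). Dpp10 held 731, 897 and 1177 in the Kir2.1-OE libraries against 2440, 1830 and 1371 in the controls, without overlap, and was called with the offsets as well (-1.28). The small single-pass subunits Kcne1l (-1.14) and Kcne3 (-1.11) were also called lower, both under 100 normalized counts on average.

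Of 11 tested genes whose products anchor or cluster Kv1 channels on axons and at synapses, 5 were called higher and 0 lower, beside 15.5% and 5.08% of all genes, with a median log2 fold change of 0.54. They were Cntn2 (1.42), Adam23 (1.41), Lgi3 (1.01, with overlapping groups), Dlg2 (0.89) and Adam22 (0.80). Adam23 had 1811 ± 788 normalized counts against 680 ± 117 and was the only one of the 11 called with the offsets, where 6.44% of all genes were called higher. The abundant scaffolds Dlg1 (4287 ± 233 against 3902 ± 124, log2 fold change 0.14) and Dlg4 (2922 ± 78.1 against 2195 ± 69.2, log2 fold change 0.41) were not called.

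**Figure D5:**
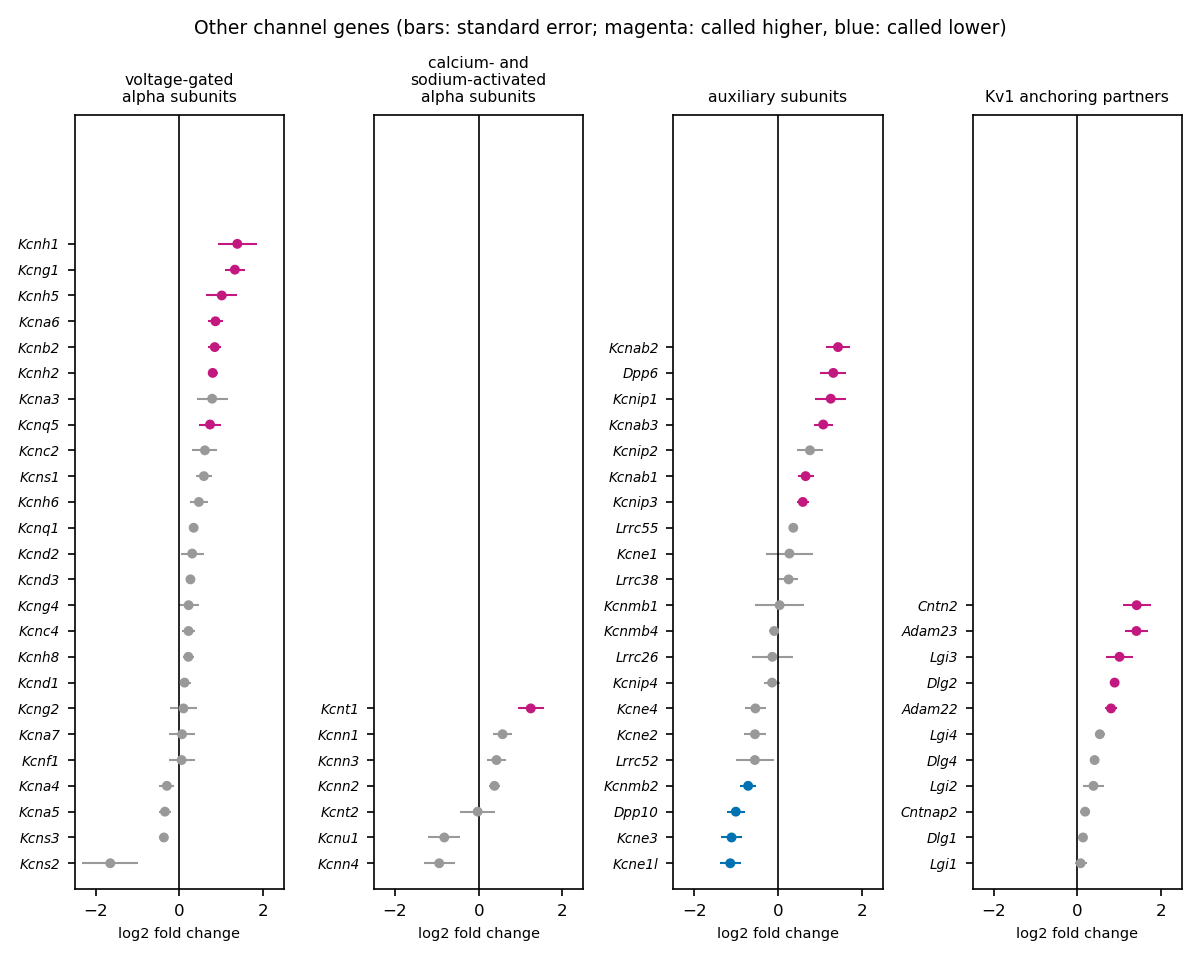
Log2 fold change (horizontal axes, Kir2.1-OE against control) of 25 of the 29 tested voltage-gated pore subunits and of each tested gene of the other 3 lists, ordered by value, with bars for the standard error. Colour marks the genes called; the voltage-gated panel shows 7 called higher and 0 lower, and the auxiliary panel 6 higher and 4 lower.

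The genes whose centred log2 counts over the 6 libraries lay closest to each channel gene were named from 13645 genes by their root mean square difference. For Kcna2 these were Nfasc (0.153), L1cam (0.154) and Syne3 (0.157), of which the former pair encode axonal cell adhesion molecules. For Kcna1 they were Hspa12a (0.0663), Slc7a14 (0.0756) and Col28a1 (0.0854), and Slc7a14 is also on the IHC marker list. Kcnc1 was nearest to Ky (0.0996), Zfp804a (0.108) and the neuronal kinase Camk4 (0.131), and Kcnq3 to Snx29 (0.104), Aff2 (0.124) and Svep1 (0.137). Kcnma1 was closest to Kirrel (0.0447), Ets1 (0.0561) and Cilp2 (0.0580), and Kcna10 to Tmem107 (0.0576), Wdr34 (0.0710) and Nme3 (0.0710). This measure takes in the difference between the groups as well as the spread within them.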

How the data were processed

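The 6 libraries were grouped by the genotype in their labels. Reads were mapped by the authors to mm10 with the nf-core RNA pipeline and assigned to genes with Salmon. The authors deposited the expected counts of each gene, not scaled for length or depth. Strand setting and annotation are not given in the sources used here. The header of control replicate 1 carries the number 4. The values (6.69% to 7.29% not whole) were rounded, and edgeR 4.0.16 (R 4.3.3) was run on them (TMM, factors 0.984 to 1.01; filterByExpr; quasi-likelihood test; Benjamini-Hochberg adjustment over 15303 genes). Offsets came from a loess trend (span 0.4, local quadratic, a degree chosen after seeing the data) of each library's log2 ratio on length and GC content of the longest GENCODE vM21 transcript. Of 24411 symbols, 23376 matched by symbol, 668 by an older symbol and 367 not. Replicates differed beyond sampling noise (chi-square per degree of freedom 15.7 to 31.1).

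Named were the 6 channel genes, listed genes that were called or averaged at least 1000 normalized counts, the 3 genes most like each channel gene among those averaging at least 50, and a few others of the lists (Kcnmb4, Lrrc52, Kcnn2, Kcna3 and Kcna5) chosen after their values were seen. Members and lists were chosen with earlier results of these data known. Some genes of the lists and 1 sequence are not reported here. Ratios used a pseudocount of 0.5. Alternatives were other scalings, filters and tests (DESeq2 1.42.0, limma 3.58.1 voom, glmTreat), the offsets, a replicate block, unrounded counts and each library left out. On simulated data 89.5% of 200 genes changed 2-fold were called, with 15 unchanged genes called, of 15202 genes tested. Unlike the data, this simulation raised and lowered equal numbers of genes and held no length trend. Its false calls therefore do not carry over to the main fit. With a length trend in the simulation, 1672 unchanged genes were called without the offsets and 6 with them, of 15177 tested. That trend was built from the same transcript lengths that the offsets use, so its removal was set in advance. It does not show how well the offsets correct the trend in the data. The marker lists were IHC, shared hair cell, OHC, neuron, glia, supporting cell, smooth muscle, cartilage and bone, fibrocyte, macrophage, erythrocyte and melanocyte. The 5 lists not described with the results had sums at 0.776 (supporting cell), 1.08 (smooth muscle, fibrocyte and macrophage) and 1.44 (cartilage and bone) times the control mean. The supporting cell sum was lower in every Kir2.1-OE library, while the median log2 fold change of that list was 0.20.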

Additional observations from a re-analysis of the deposited data

How the results depend on the processing

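Kcna1 and Kcna2 kept their call in all 21 alternatives and Kcnc1 in 20. With length and GC offsets the log2 fold changes of genes that lost their call were 0.23 for Kcnma1, -0.49 for Kcna10 and 0.53 for Kcnq3, 986 genes were called higher, 8 other channel genes were called higher, and the log2 ratio difference of Kcna1 to Kcna2 reversed to 0.073. Offsets with a local linear trend, added after seeing the data, gave 0.053, -0.51 and 0.35 for the same 3 genes, 900 genes higher and 7 other channel genes higher. Offsets from the median coding transcript, also added then, gave 0.57 for Kcnma1 and 0.40 for Kcnq3, left Kcna10 called (-0.70), and gave 1455 genes higher, and 9 other channel genes higher and 7 lower. Against a log2 fold change of 0.6, Kcnma1 (0.80, adjusted p = 0.210, edgeR's glmTreat), Kcna10 (-0.68, adjusted p = 0.688) and Kcnq3 (1.05, adjusted p = 0.0780) were lost, and 832 genes passed higher and 57 lower, with 5 and 0 other channel genes. Upper quartile scaling gave 1897 genes higher and 1378 lower, and no fold threshold gave 4184 and 3590, against 2365 and 778. The same-numbered libraries did not deviate together after centring within each group (correlations -0.09, -0.22 and -0.21). With 3 pools a group this cannot exclude shared litters, which the labels do not give. The header of control replicate 1 carries the number 4, so its match to Kir2.1-OE replicate 1 is uncertain. The block below uses the same numbers. A replicate block left all 6 calls in place (0.81 for Kcnma1, -0.69 for Kcna10, 1.43 for Kcna1, 1.77 for Kcna2, 1.95 for Kcnc1 and 1.05 for Kcnq3), with 2220 genes higher and 718 lower. The block with the offsets gave 0.25 for Kcnma1, -0.49 for Kcna10, 1.05 for Kcnc1 (adjusted p = 0.0557, edgeR), 0.53 for Kcnq3, 799 genes higher and 448 lower, and 5 other channel genes higher and 1 lower. With each library left out in turn, Kcna10 lay between -0.85 and -0.58, genes called higher between 1878 and 2527 and lower between 536 and 1074, and other channel genes between 12 and 17 higher and 3 and 6 lower. The causes were not tested. At 3 pools a group, single-gene permutation tests cannot pass 0.05.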
